A study of Homo sapiens with 2 samples.

Results

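The lysosome digests proteins, glycans, lipids and nucleic acids, and this account describes the transcripts of 53 genes that build and acidify it, out of 60683 genes in a count table of human HEK293T cells. The genes were taken by symbol from a list of V-ATPase subunits, cathepsins, glycosidases, sulfatases and lipid hydrolases, lysosomal membrane proteins and the MiT/TFE transcription factors, and all 53 symbols matched an Ensembl gene. HEK293T is a line of human embryonic kidney origin that carries adenovirus and SV40 T antigen sequences. The cells carried stable shRNA against FKBP5, which encodes a peptidyl-prolyl isomerase that works with HSP90, and total RNA from 2 such knockdown samples was sequenced in strand-marking libraries. Scramble shRNA control cells, which the protocol also mentions, were not analysed here, so every value is a level in knockdown cells and no effect of the knockdown was tested. Neither the shRNA sequences nor whether the 2 samples came from separate cultures is stated in the sources used here, and their spread may be only technical.

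The V-ATPase is a rotary proton pump. Its cytosolic V1 sector hydrolyses ATP and drives a ring of proteolipids in the membrane-bound V0 sector, and the protons it moves keep the lysosomal lumen acidic. Cathepsins and the other hydrolases work best in that acid. TFEB, TFE3 and MITF are basic helix-loop-helix factors that bind E-box motifs in the promoters of many lysosomal genes, and the kinase complex mTORC1 on the lysosomal surface holds TFEB in the cytoplasm when nutrients are plentiful.

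Sample 1 held 9997706 counts and sample 2 held 21284648 counts, so the larger library measured each gene with about 2.13 times as many counts. Levels are in CPM, each count divided by its library's size as the authors scaled it, and intervals are 95% exact Poisson intervals that cover counting error only, since no molecular identifiers are described. A count of 3 corresponded to 0.289 CPM in sample 1 and 0.137 CPM in sample 2. FKBP5 had 41 counts (3.95 CPM) in sample 1 and 77 counts (3.52 CPM) in sample 2, a mean of 3.74 ± 0.303 CPM (SD, n = 2). All 8 markers of the HEK293 lineage averaged at least 1 CPM, with means of 2.89 to 297 CPM. Among markers of other cells, 1 of 8 for macrophages and other blood cells, 2 of 6 for osteoclasts, 2 of 6 for kidney intercalated cells, 1 of 6 for melanocytes and 5 of 6 for neurons reached that level, with summed CPM of 21.0 and 19.9, 41.3 and 45.3, 28.0 and 24.5, 10.7 and 9.06, and 45.2 and 53.0 in samples 1 and 2.

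Genes are compared with each other below as CPM per kilobase of the union of their GENCODE 29 exons. The value per kilobase of the longest protein-coding transcript was more than 1.5 times higher for 28 of the 53 genes, and it is given beside the exon-union level of those genes. Of the 53 genes, 49 averaged at least 1 CPM over both samples and 4 did not (ATP6V0A4, ATP6V0C, ATP6V0D2 and ATP6V1B1). On the exon-union scale 33 of 53 lay above 5.72 CPM per kilobase, the median of the 13244 protein-coding genes that averaged 1 CPM or more. On the longest-transcript scale 38 of 53 lay above the corresponding median of 8.23. The 2 accessory subunits had the highest group median, 22.6 CPM per kilobase (SD 0.576 between the samples' medians). It is only the midpoint of ATP6AP1 at 39.7 and ATP6AP2 at 5.42. Next came the 4 membrane proteins at 14.0 (SD 0.276) and the 13 glycosidases, sulfatases and lipid hydrolases at 13.5 (SD 0.274). The V0 sector (9.98, SD 0.210), the V1 sector (9.52, SD 0.150) and the cathepsins (9.17, SD 0.169) had medians close to each other, and the MiT/TFE factors were lowest at 1.24 (SD 0.0749). Per kilobase of the longest transcript the order changed: the V0 median was 25.8, the V1 median 20.7, the hydrolase median 22.5, the membrane protein median 21.8 and the cathepsin median 13.4, while the accessory subunits stayed highest at 45.5 and the MiT/TFE factors lowest at 2.71.

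The E-box core bound by MiT/TFE factors, CACGTG, was searched in RefSeq promoter windows on GRCh38.p14 that span 250 bases before to 50 bases after each annotated start. Windows were at hand for 36 of the 53 genes. The core, which reads the same on both strands, was found in 11 of the 36 (30.6%), against 10.9% of 15842 protein-coding genes and 8.77% of all 27305 genes with a window. The longer match TCACGTG on either strand, which contains the core, was found in the same 11 genes, against 5.83% of the protein-coding genes. A palindrome of 10 letters, in which GT precedes and AC follows the core, was found in 3 of the 36 (8.33%), namely GAA, MCOLN1 and ATP6V1G1, against 0.638% of the protein-coding genes. These are counts of letters and say nothing of binding. The motif was chosen as one that these factors bind in lysosomal promoters, so a higher share among lysosomal genes is no independent result. The shares were not tested, and the background was not matched for level or base content. The windows of LAMP1, which held 6 copies of the core, and of the 3 genes with the 10-letter palindrome are printed below as stretches of 210 bases, 5′ to 3′ on the plus strand of GRCh38.p14, ending just past the annotated start, with each core in capitals.
LAMP1 (chr13:113297039-113297248): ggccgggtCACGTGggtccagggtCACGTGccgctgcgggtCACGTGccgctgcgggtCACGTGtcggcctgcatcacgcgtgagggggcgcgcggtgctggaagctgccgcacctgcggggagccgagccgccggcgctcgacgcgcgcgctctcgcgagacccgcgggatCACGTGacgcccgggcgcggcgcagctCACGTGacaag
GAA (chr17:80101381-80101590): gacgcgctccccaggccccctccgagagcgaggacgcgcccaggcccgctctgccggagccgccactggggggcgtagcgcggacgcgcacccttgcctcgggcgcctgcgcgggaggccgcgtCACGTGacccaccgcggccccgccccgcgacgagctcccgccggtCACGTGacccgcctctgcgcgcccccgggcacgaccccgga
MCOLN1 (chr19:7522424-7522633): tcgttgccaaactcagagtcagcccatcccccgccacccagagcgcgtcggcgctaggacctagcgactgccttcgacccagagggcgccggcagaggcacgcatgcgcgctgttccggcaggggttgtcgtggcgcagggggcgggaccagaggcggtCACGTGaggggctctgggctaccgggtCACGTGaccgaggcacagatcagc
ATP6V1G1 (chr9:114587569-114587778): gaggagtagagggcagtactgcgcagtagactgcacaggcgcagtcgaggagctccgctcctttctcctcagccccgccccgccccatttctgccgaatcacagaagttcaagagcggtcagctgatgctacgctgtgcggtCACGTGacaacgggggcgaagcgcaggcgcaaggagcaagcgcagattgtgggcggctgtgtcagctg
In the LAMP1 stretch 4 cores stand in a row of near repeats at its 5′ end and the other 2 lie near the start. GAA carried the 10-letter palindrome at both of its cores, whose first bases were 76 and 31 bases before the start. In MCOLN1 the core nearer the start, 14 bases before it, was the one inside the palindrome.

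**Figure D1:**
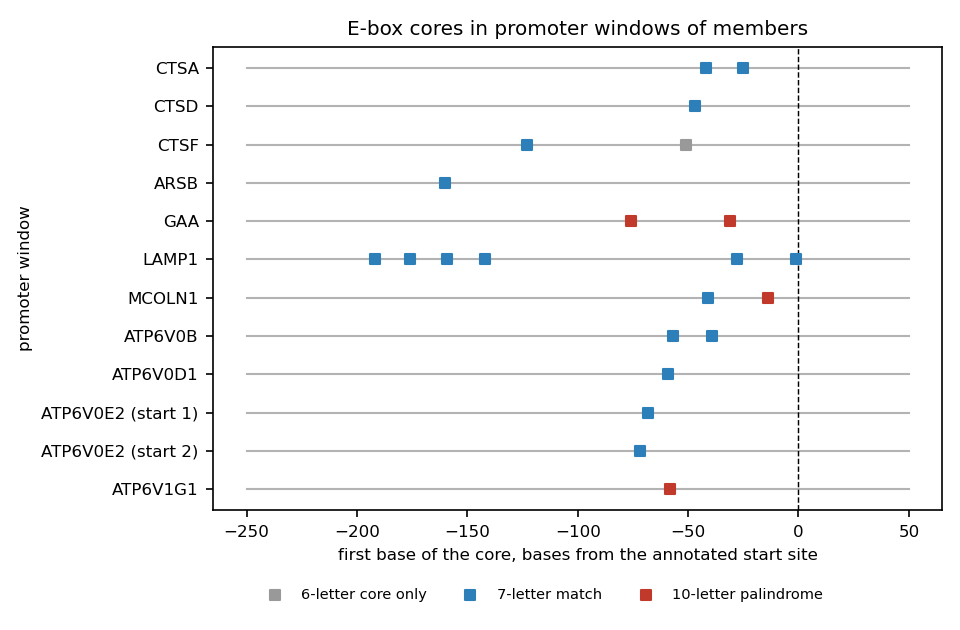
Position of each CACGTG core in the promoter windows of the 11 genes that hold one; the x axis is the distance of the core's first base from the annotated start in bases, negative before it, and colours mark the longest of the 3 motifs each core belongs to. LAMP1 holds 6 cores between 192 bases and 1 base before its start, and ARSB holds a single core 160 bases before it.

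The other 7 genes with a core were ARSB, ATP6V0B (2 cores), ATP6V0D1, ATP6V0E2, CTSA (2 cores), CTSD and CTSF (2 cores). By role, cores stood in 3 of 7 V0 genes with a window, 1 of 7 V1 genes, 3 of 7 cathepsins, 2 of 7 glycosidases, sulfatases and lipid hydrolases, 2 of 3 membrane proteins, and in no accessory subunit (of 2) and no MiT/TFE gene (of 3). The 11 genes with a core had a median level of 17.7 CPM per kilobase (2.18 to 61.2), and the 25 genes with a window but no core had a median of 5.42 CPM per kilobase (0.108 to 112). The first range lies inside the second, and the difference was not tested. Per kilobase of the longest transcript these medians were 56.7 and 13.6. The 25 genes include the 3 MiT/TFE genes and 3 of the genes under 1 CPM (ATP6V0A4, ATP6V0C and ATP6V1B1). The 17 genes without a window had a median of 9.02 CPM per kilobase (0.0312 to 183), or 21.8 by the longest transcript. Of the other lysosomal lists, the core stood in 1 of 12 further V-ATPase subunits and assembly factors, 3 of 9 further proteases and cystatins and 6 of 22 further hydrolases and activators. It also stood in 5 of 22 further membrane proteins, 5 of 14 genes of mannose 6-phosphate tagging and sorting and 7 of 18 mTORC1 genes.

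The V1 sector carries out ATP hydrolysis on a hexamer of A and B subunits. ATP6V1A, the only gene for the catalytic A subunit, had 131 and 126 CPM in samples 1 and 2. ATP6V1B2, the widely expressed B subunit, had 82.4 and 83.5 CPM. ATP6V1B1, the B subunit known from kidney intercalated cells and the inner ear, had 3 counts (0.289 CPM) in sample 1 and 14 counts (0.641 CPM) in sample 2. The B2 isoform was the higher of the pair in both samples: per kilobase the ratio of ATP6V1B2 to ATP6V1B1 was 98.0 (95% exact binomial interval 33.4 to 476) in sample 1 and 44.8 (26.7 to 82.2) in sample 2, and the intervals overlap. ATP6V1B1 shares 62.4% of its exon bases with VAX2 on the same strand, a homeobox gene with 109 counts in sample 1 and 212 in sample 2. Against the exon bases ATP6V1B1 shares with no other gene the ratio over both samples was 23.1, in place of 61.4, and the effect of the overlap on its counts was not tested.

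The stalk subunits C, E and G each have a widely expressed isoform and, on the list used here, a restricted one. The widely expressed one was higher in both samples for each. Another G gene, ATP6V1G3, is not on that list and had no count. ATP6V1C1 had 51.0 and 47.7 CPM in samples 1 and 2 and ATP6V1C2, known from lung and kidney, had 4.92 and 4.03 CPM. Their ratio per kilobase was 6.17 (4.63 to 8.40) in sample 1 and 7.05 (5.67 to 8.86) in sample 2. The C pair therefore had the smallest ratio of these 3 subunits, with ATP6V1C2 supplying 13.9% and 12.4% of the C transcripts per length. ATP6V1E1 had 103 and 104 CPM and ATP6V1E2, known from testis, had 8.0 and 8.1 CPM (1.52 CPM per kilobase, or 4.07 by the longest transcript). The E ratio was 21.1 (16.9 to 26.7) in sample 1 and 21.1 (18.1 to 24.8) in sample 2. ATP6V1G1 had 83.1 and 76.7 CPM, against 1.06 and 1.01 CPM for ATP6V1G2, the isoform known from neurons. The G ratio was 129 (71.7 to 259.2) in sample 1 and 125 (82.5 to 201) in sample 2, on 11 and 22 counts of ATP6V1G2, which shares 13.6% of its exon bases with a read-through gene that had no counts.

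The remaining V1 subunits have a single gene each. ATP6V1F, a small subunit of the central rotor, had 92.9 and 83.3 CPM in samples 1 and 2, which on its short exons gave 112 ± 8.59 CPM per kilobase (SD, n = 2), the highest of all V-ATPase genes here. It was above 98.4% of the 13244 protein-coding genes. ATP6V1D, the rotor shaft, had 52.8 and 46.4 CPM (11.7 ± 1.07 CPM per kilobase, or 26.9 by the longest transcript). ATP6V1H, which regulates the coupling of V1 to V0, had 35.4 and 33.0 CPM (6.72 ± 0.324 CPM per kilobase, or 14.5 by the longest transcript). The levels per kilobase in V1 thus spanned from 112 for ATP6V1F and 61.2 for ATP6V1G1, through 32.2 for ATP6V1E1 (73.7 by the longest transcript), 25.1 for ATP6V1A and 10.6 for ATP6V1B2 (28.9), to 0.173 for ATP6V1B1. As background, the A, B, E and G proteins are each present in several copies in the pump.

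In the V0 sector the a subunit carries the proton half-channels and directs the pump to its membrane. ATP6V0A1 had 108 and 111 CPM in samples 1 and 2 and ATP6V0A2, best known from the Golgi, had 54.0 and 56.8 CPM. ATP6V0A4, the kidney intercalated cell isoform, had 4 and 11 counts (0.386 and 0.503 CPM). The ratio of ATP6V0A1 to ATP6V0A2 per kilobase was 2.50 (2.26 to 2.77) in sample 1 and 2.45 (2.29 to 2.62) in sample 2, so a1 was the higher of the pair in both. TCIRG1, the a3 isoform known from osteoclasts and not on the list of 53, had 26.7 and 32.6 CPM. Counting it, a3 made up 30.5% and 34.1% of a-subunit transcripts per kilobase of all exons in samples 1 and 2. The a1 isoform made up 49.3% and 46.4%, a2 19.7% and 19.0%, and a4 0.469% and 0.559%. By the longest transcript the shares were 22.4% and 25.4% for a3, 58.7% and 56.1% for a1, 18.6% and 18.1% for a2, and 0.277% and 0.335% for a4.

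The d subunit couples the proteolipid ring to the rotor. ATP6V0D1, the widely expressed isoform, had 144 and 146 CPM in samples 1 and 2, whereas ATP6V0D2, known from osteoclasts and kidney, had 1 count in sample 1 and 2 counts in sample 2, both under 3 counts. The ratio per kilobase was 548 (98.3 to 21672.5) in sample 1 and 584 (162 to 4823) in sample 2, intervals that leave the size of the ratio poorly fixed. The e subunit is a small protein of the membrane sector with isoforms ATP6V0E1 and ATP6V0E2. ATP6V0E2 had 160 and 149 CPM and ATP6V0E1 had 37.4 and 36.6 CPM. Per kilobase of all exons they were level, with a ratio of ATP6V0E2 to ATP6V0E1 of 1.03 (0.923 to 1.16) in sample 1 and 0.977 (0.904 to 1.06) in sample 2. Per kilobase of the longest coding transcript the ratio was 2.25 (2.02 to 2.52) in sample 1 and 2.14 (1.98 to 2.31) in sample 2, so which e isoform was more abundant depends on the length used.

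ATP6V0B and ATP6V0C encode the proteolipids c″ and c that form the rotating ring. ATP6V0B had 121 and 99.5 CPM in samples 1 and 2, or 31.2 ± 4.27 CPM per kilobase (SD, n = 2; 65.4 by the longest transcript). ATP6V0C had 5 counts (0.482 CPM, interval 0.156 to 1.12) in sample 1 and 16 counts (0.732 CPM, 0.418 to 1.19) in sample 2. As background, its protein is the most numerous of the ring in the human pump. The annotation places 72.1% of the exon bases of ATP6V0C inside exons of 2 other protein-coding genes on the same strand, neither of which had a count in either sample, and 34.3% of the 50-base runs in its exons are absent from every other gene. The sources used here do not give how reads that match more than 1 gene were counted, and the part of the overlap in this count was not tested. Levels per kilobase in V0 were 31.2 for ATP6V0B, 22.9 for ATP6V0E2 (56.7 by the longest transcript), 22.8 for ATP6V0E1, 17.7 for ATP6V0D1 (84.5 by the longest transcript, the highest of V0), 9.98 for ATP6V0A1 (26.5) and 4.03 for ATP6V0A2 (8.47). The accessory subunit ATP6AP1 had 197 and 191 CPM and ATP6AP2, the prorenin receptor, had 53.3 and 50.2 CPM, which gave 39.7 ± 0.925 and 5.42 ± 0.226 CPM per kilobase (68.8 and 22.2 by the longest transcript).

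**Figure D2:**
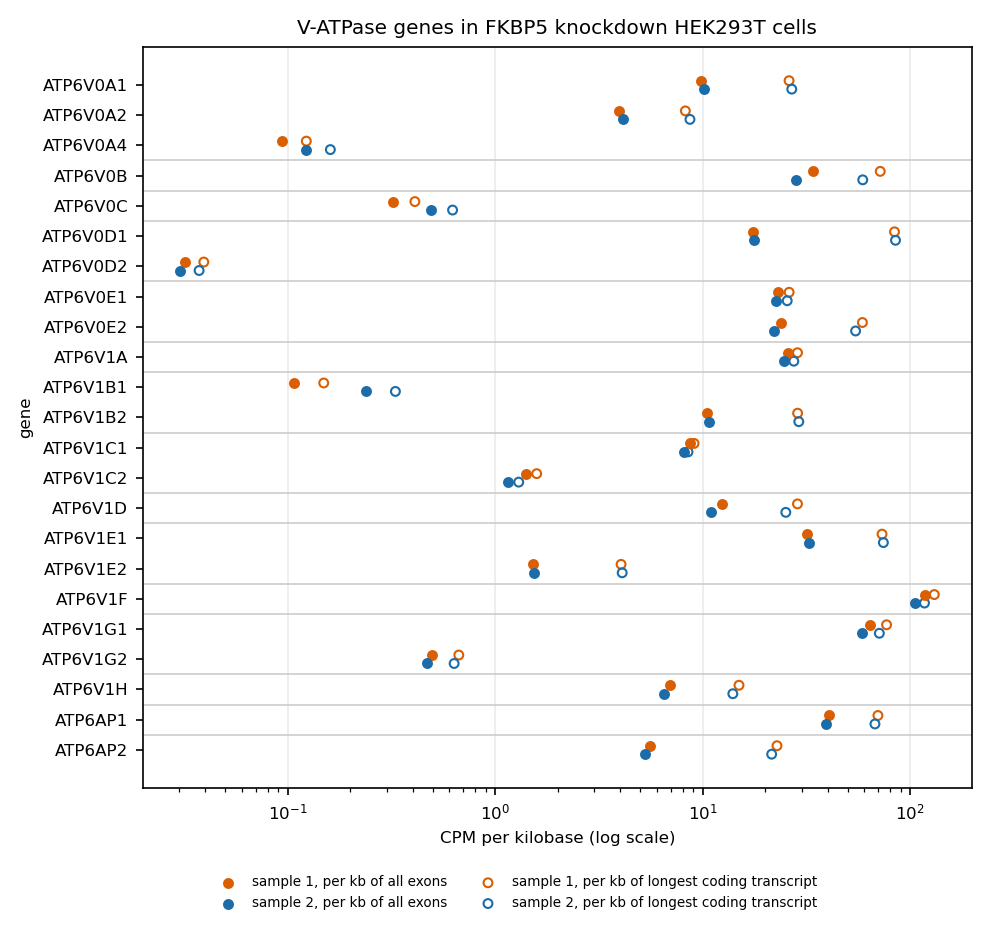
Levels of the 23 V-ATPase genes in CPM per kilobase on a log axis, 1 row per gene; filled points divide by the union of exons and open points by the longest coding transcript, with sample 1 and sample 2 in separate colours. ATP6V1F stands highest at a mean of 112, and ATP6V1G2, ATP6V0C, ATP6V1B1, ATP6V0A4 and ATP6V0D2 stand lowest, under 0.5 by the union of exons.

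Exon overlap of this kind, on the same strand, touched 10 of the 53 genes. It was above 10% of the exon bases for 5 of them: ATP6V0C, ATP6V1B1, CTSD (41.7%), ATP6V1G2 and NAGLU (12.6%). The other 5, ATP6V0E2, HEXA, MCOLN1, GLB1 and ATP6V0A1, shared from 6.90% down to 1.31%. With exons on either strand, ATP6V0E2 shared 19.7% and HEXA 16.3%. Among genes with no same-strand overlap, that share was above 10% for ATP6V1C2 (29.9%), CTSA (28.5%), ATP6V1F (23.7%) and ATP6V0D2 (16.7%). How strand was handled in counting is not given, and the effect of this overlap was not tested.

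**Figure D3:**
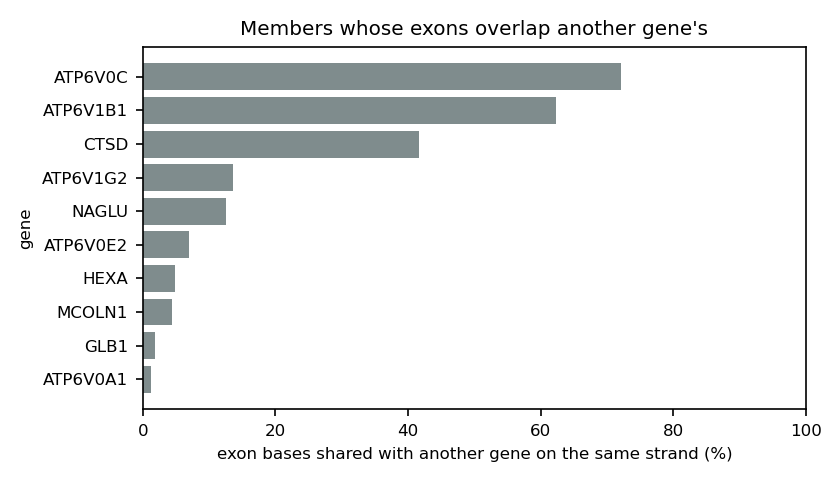
Share of exon bases that each of the 10 affected genes has in common with an exon of another GENCODE 29 gene on the same strand, in percent, 1 bar per gene. ATP6V0C at 72.1% and ATP6V1B1 at 62.4% share the most, and both are among the 4 genes under 1 CPM.

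All 10 cathepsins averaged at least 1 CPM, between 1.11 and 91.1 CPM. CTSZ, a carboxypeptidase, had 35.0 and 30.6 CPM in samples 1 and 2 and the highest level per kilobase, 16.1 ± 1.53 (SD, n = 2), ahead of CTSL, an endopeptidase, at 14.9 ± 0.323, CTSD, the main aspartic protease, at 14.0 ± 0.416, CTSA, the protective protein of neuraminidase and beta-galactosidase, at 13.3 ± 0.788, and CTSB at 12.3 ± 0.105. Adjacent genes in this order differed by less than the SD of CTSZ. Per kilobase of the longest transcript CTSA was highest at 36.3, before CTSB at 23.5, CTSZ at 21.9, CTSD at 20.6 and CTSL at 16.2. CTSD shares 41.7% of its exon bases with a gene that had 4 counts in sample 1 and 5 in sample 2. Of the 50-base runs in its exons, 63.5% are absent from every other gene. The effect of the overlap on the place of CTSD in this order was not tested. CTSF (6.07 ± 0.443), CTSH (3.94 ± 0.0642, or 10.6 by the longest transcript) and CTSC (2.59 ± 0.0571, or 4.83), the dipeptidyl peptidase that activates granule proteases in blood cells, were lower per kilobase. CTSK, the collagen-degrading protease of osteoclasts, had 29 counts (2.80 CPM) in sample 1 and 62 counts (2.84 CPM) in sample 2. CTSS, the protease of antigen-presenting cells, had 13 counts (1.25 CPM, interval 0.667 to 2.14) in sample 1 and 21 counts (0.961 CPM, 0.595 to 1.47) in sample 2, the lowest cathepsin at 0.262 ± 0.0488 CPM per kilobase.

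All 13 genes in the group of glycosidases, sulfatases and lipid hydrolases averaged at least 11.4 CPM. PSAP, counted in this group, encodes no hydrolase but the precursor of the saposins that present sphingolipids to their hydrolases. PSAP had 580 and 606 CPM in samples 1 and 2. At 183 ± 5.84 CPM per kilobase (SD, n = 2) it was the highest of the 53 genes and above 99.2% of the protein-coding genes that averaged 1 CPM or more. GAA, the acid alpha-glucosidase that breaks down glycogen, had 236 and 264 CPM, or 48.6 ± 3.87 CPM per kilobase. On exon unions GAA ranked after PSAP, ATP6V1F and ATP6V1G1, but by the longest transcript (69.0) its rank was 7 of the 53. NAGLU, an enzyme of heparan sulfate breakdown, had 67.4 and 70.6 CPM (22.96 ± 0.751 CPM per kilobase). By the longest transcript NAGLU had 27.1, and its rank among the 13 was 6. GLA, the alpha-galactosidase of globotriaosylceramide, had 52.9 and 47.1 CPM (22.0 ± 1.81 CPM per kilobase, or 35.1 by the longest transcript). ARSA, the arylsulfatase of sulfatide, had 53.6 and 67.7 CPM (20.7 ± 3.40 CPM per kilobase, or 29.6 by the longest transcript). On the exon-union scale those neighbours do not differ beyond their spread. GUSB, the beta-glucuronidase, followed at 18.8 ± 0.985 (32.6 by the longest transcript), then GLB1, the beta-galactosidase, at 13.5 ± 0.274 (22.5). LIPA, the acid lipase of cholesteryl esters, had 9.31 ± 0.0376 CPM per kilobase (16.4 by the longest transcript), and SGSH, a heparan sulfatase, had 9.02 ± 0.0306 (21.8). SMPD1, the acid sphingomyelinase, had 4.14 ± 0.199 CPM per kilobase.

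At the low end, ASAH1, the acid ceramidase, had 39.5 and 38.5 CPM in samples 1 and 2, which gave 2.54 ± 0.0475 CPM per kilobase of all exons but 12.8 per kilobase of its longest transcript. ARSB, the sulfatase of dermatan sulfate, had 18.6 and 21.0 CPM (2.18 ± 0.184 CPM per kilobase, or 3.71 by the longest transcript). HEXA, the alpha subunit of beta-hexosaminidase, had 119 counts (11.5 CPM) in sample 1 and 252 counts (11.5 CPM) in sample 2, or 0.912 ± 0.00346 CPM per kilobase (2.19 by the longest transcript), and was lowest of the 13 on both lengths.

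Of the membrane proteins, LAMP1, with LAMP2 a main glycoprotein of the lysosomal membrane, had 210 and 200 CPM in samples 1 and 2 (35.7 ± 1.26 CPM per kilobase, or 75.9 by the longest transcript). LAMP2, which also takes part in chaperone-mediated autophagy, had 100.04 and 99.6 CPM (18.1 ± 0.0548 CPM per kilobase). MCOLN1, a calcium channel of the lysosomal membrane, had 40.7 and 37.9 CPM (9.93 ± 0.498 CPM per kilobase, or 18.9 by the longest transcript). SCARB2, a sorting receptor of the lysosomal membrane, had 65.3 and 64.9 CPM, spread over long exons (3.37 ± 0.0169 CPM per kilobase, or 13.6 by the longest transcript). Among the MiT/TFE factors TFE3 was the highest, with 45.8 and 47.0 CPM, against 7.32 and 6.73 CPM for TFEB and 7.13 and 7.50 CPM for MITF, the factor of the melanocyte lineage. Per kilobase TFE3 had 10.8 ± 0.208, TFEB 1.24 ± 0.0749 and MITF 1.02 ± 0.0366 (13.6, 2.71 and 1.52 by the longest transcript), so the same order held on both lengths.

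**Figure D4:**
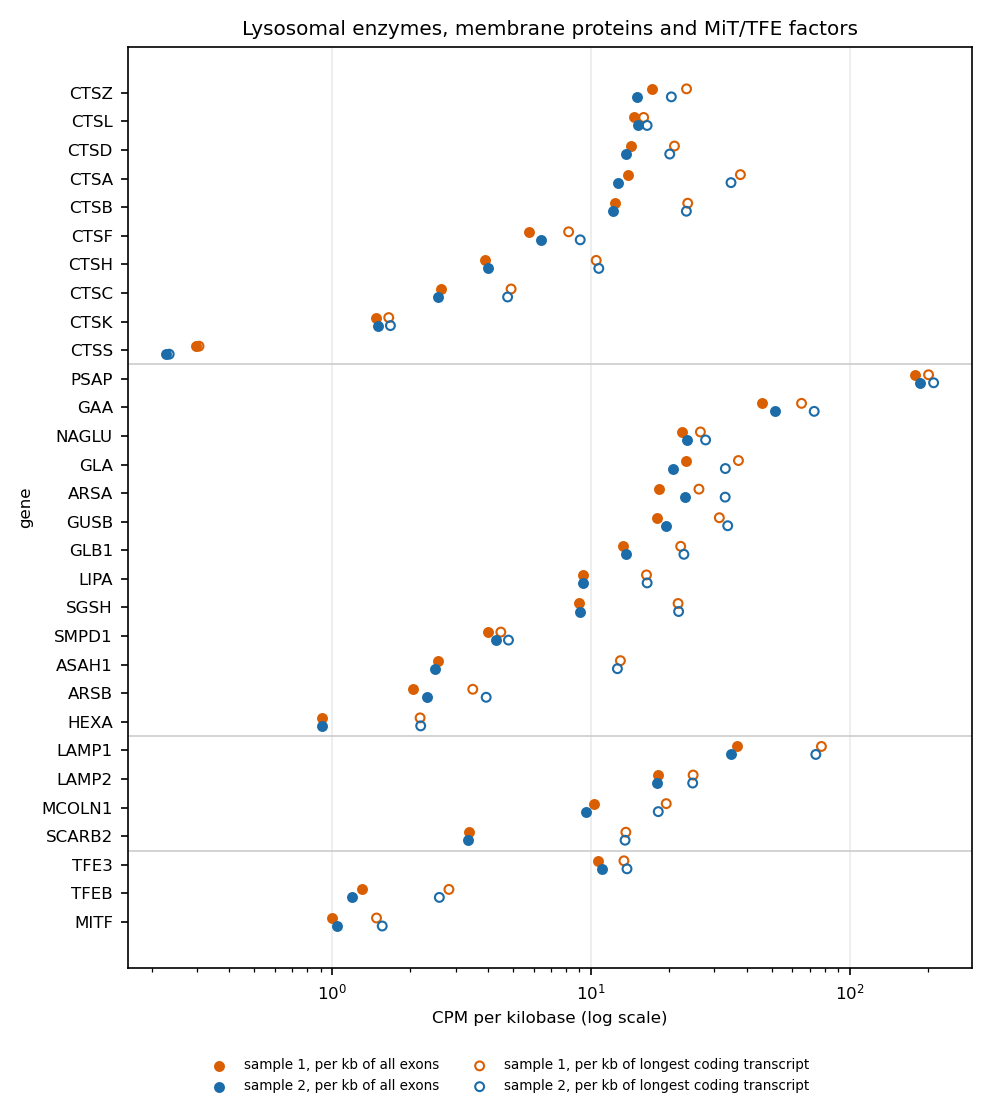
Levels of the 30 cathepsins, hydrolases, membrane proteins and MiT/TFE factors in CPM per kilobase on a log axis, 1 row per gene; filled points divide by the union of exons and open points by the longest coding transcript, with sample 1 and sample 2 in separate colours. PSAP is highest at a mean of 183 and CTSS lowest at 0.262, and for most genes the points of the 2 samples nearly coincide.

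The 2 samples were also compared gene by gene, which compares 2 libraries of one group and not conditions. With an exact binomial test of the counts (two-sided, Benjamini-Hochberg adjustment over the 15530 genes that averaged 1 CPM or more), 8.97% of the genes tested had an adjusted p under 0.05, 4.56% higher and 4.41% lower in sample 1. Of the 49 lysosomal genes tested, 4 passed (8.16%), a share near that background. ATP6V0B was higher in sample 1, with 121 CPM against 99.5 CPM in sample 2 and a log2 ratio of 0.28 on the scale of CPM + 1 (adjusted p = 5.3e-06, exact binomial test). ARSA was lower in sample 1, with 53.6 CPM against 67.7 CPM in sample 2 (log2 ratio -0.33, adjusted p = 0.000118). GAA was lower in sample 1, with 236 CPM against 264 CPM (log2 ratio -0.16, adjusted p = 0.00014), and so was PSAP, with 580 CPM against 606 CPM (log2 ratio -0.06, adjusted p = 0.0431). The PSAP call was lost when CPM was computed from the column totals (adjusted p = 0.155) and when every gene with a count was tested (adjusted p = 0.111).

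The calls fell where counts were high. Of the 10 lysosomal genes at 100 to 1000 CPM, 3 passed, against 25.5% of all genes there, and of the 26 at 30 to 100 CPM, 1 passed, against 10.4% of all genes. None of the 6 at 10 to 30 CPM passed and none of the 7 at 1 to 10 CPM, where 5.55% and 2.28% of all genes did. At an unadjusted p under 0.05, 9 of the 49 (18.4%) passed, against 21.7% of all genes. In size, 47 of 49 (95.9%) differed by less than 1.2-fold on the scale of CPM + 1, against 83.0% of all genes tested, a fold that was set after the values were seen. On plain CPM 45 of 49 did, against 77.8% of all genes, and the exceptions were ATP6V0B, ARSA, ATP6V1C2 and CTSS. These shares were not matched for abundance: 7 of the 49 averaged 1 to 10 CPM, against 5215 of the 15530 genes tested. The median log2 ratio of the 49 genes was 0.01, with 26 higher and 23 lower in sample 1, beside -0.01 over all genes tested; with DESeq2 size factors it was -0.01 beside -0.03. Among the 13 glycosidases, sulfatases and lipid hydrolases, 11 were lower in sample 1, 3 of them past the test, with a median of -0.06, where 53.1% of all genes tested were lower and 4.41% were called lower. With CPM from the column totals 8 of the 13 were lower, and PSAP did not pass (adjusted p = 0.155, exact binomial test). The 4.41% was not matched for abundance: GAA and PSAP lie at 100 to 1000 CPM, where 25.5% of all genes passed in either direction. Among the 11 V1 genes 8 were higher in sample 1 under each scaling tried. With the deposited scaling their median was 0.09 and none passed the test. With column totals the median was 0.11 and ATP6V1F passed (adjusted p = 0.0343, exact binomial test).

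**Figure D5:**
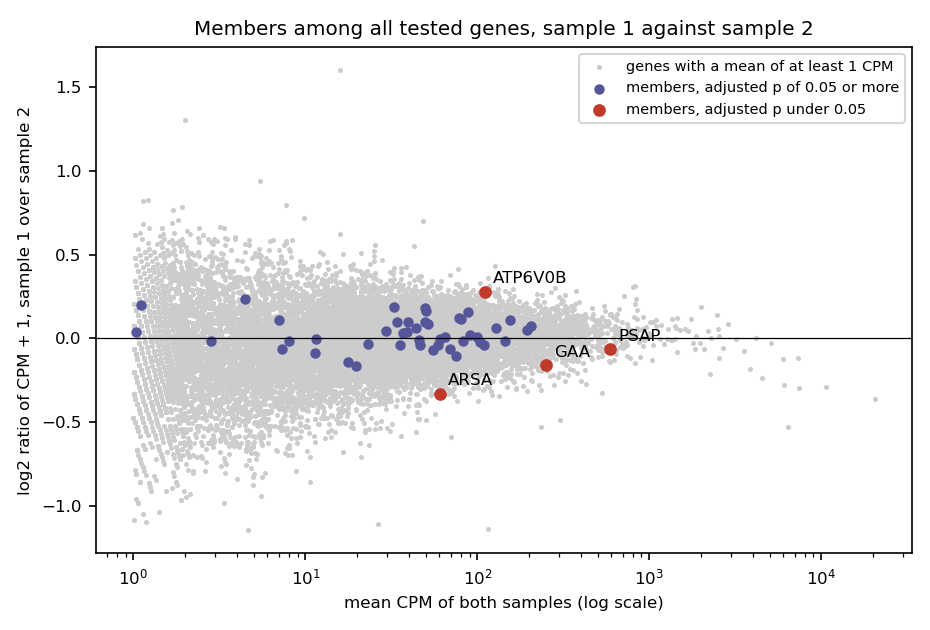
Log2 ratio of CPM + 1, sample 1 over sample 2, on the y axis against the mean CPM of both samples on a log x axis; grey points are the genes tested, blue points the lysosomal genes and red points the 4 of them with an adjusted p under 0.05. ATP6V0B lies above 0 and ARSA, GAA and PSAP below it, and the lysosomal genes range from -0.33 to 0.28.

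Other genes of the pathway, listed by role, were read in the same way, and their calls stand beside the 8.97% of all genes called. Of 12 further V-ATPase subunits and assembly factors tested none passed between the samples. VMA21, an assembly chaperone of V0, was highest at 10.3 CPM per kilobase, then TCIRG1 at 6.76 (11.1 by each gene's longest transcript), and ATP6V1G3, the kidney G isoform, had no count. Of 10 further proteases and cystatins tested, CTSV and CSTB were higher and CST3 lower in sample 1 by the same exact test. CST3 (cystatin C, an inhibitor of cathepsins) had 61.9 and LGMN (the asparagine-specific legumain) 31.8 CPM per kilobase (69.6 and 58.7 by the longest transcript), while CTSE, CSTA and CST6 had no count. In the list of 28 further hydrolases and activators, not all of them hydrolases, PGAP6 had the highest level, 25.5 CPM per kilobase. GALC, the galactosylceramidase, had the lowest, 0.539 CPM per kilobase (30.7 and 0.947 by the longest transcript). Of 24 further membrane proteins tested CTNS, the cystine transporter, was higher in sample 1. CD63 (52.2) and LAPTM4B (50.8) led them per kilobase (111 and 51.2 by the longest transcript), and CD68, a macrophage marker that shares 81.7% of its exon bases with another gene on the same strand, had no count. Of 17 genes of mannose 6-phosphate tagging and sorting, GGA3 was lower in sample 1. AP1B1 (38.7) and AP1S1 (36.2), subunits of the AP-1 adaptor, were highest per kilobase and the sorting receptor SORL1 lowest (0.977), with 62.2, 48.7 and 1.74 by the longest transcript. Of 22 mTORC1 genes, MLST8 and RHEB were higher and TSC2 lower in sample 1. MLST8 (71.7) and LAMTOR2 (40.3) had the highest levels per kilobase and DEPDC5, of the GATOR1 complex, the lowest (0.89), with 166, 88.5 and 2.38 by the longest transcript.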

How the data were processed

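Total RNA from 2 HEK293T samples with stable FKBP5 knockdown was sequenced after a directional library protocol, per the labels' protocols. Reads were aligned with STAR 2.7.7a to GRCh38 and scaled with edgeR, per the submitters' processing notes. The sources used here do not name the counting program or its annotation, nor how strand and reads matching more than 1 gene were handled. The authors deposited whole-number counts per Ensembl gene for both samples and, per sample, CPM values (counts scaled by library size). Every deposited CPM value was a whole count times 1 constant per library (100% within 1e-06). The ratio of the library sizes behind the CPM, 0.475, was the same as with edgeR 4.0.16 TMM factors.

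From these values, means and SDs over 2 samples, 95% exact Poisson intervals, CPM per kilobase (GENCODE 29 exon unions, or the longest protein-coding transcript), isoform ratios with exact binomial (Clopper-Pearson) intervals and the exact binomial test between samples (scipy 1.17.1; mean of at least 1 CPM, pseudocount 1) were computed. Of the table's IDs 96.4% were in GENCODE 29. The test was checked on simulated counts with Poisson error only, which cannot show how it behaves with further variation between libraries. Quasi-likelihood tests need a second group and were not run. Promoter sequences are from RefSeq (GRCh38.p14). The 53 genes, the role lists and the tests were chosen with earlier results of these data known. All 53 genes are described. By rule, the text also names FKBP5, the 2 highest and the lowest gene per kilobase of each other list, and any gene past the test; VAX2 and the calls in other lists were added after their values were seen. Some genes of the other lists that this rule names are not reported here. Depth was 9997706 and 21284648 counts, and intervals cover counting error only. Alternatives were another length, another scaling, other minimum levels, exon bases in no other gene (chosen after seeing the data) and either sample alone.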

Additional observations from a re-analysis of the deposited data

How the results depend on the processing

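With 1 group of 2 samples, levels have no test against control cells, and the depth of sample 1 limits genes under about 0.289 CPM. With the longest protein-coding transcript the group medians, in CPM per kilobase, moved to 25.8 (V0), 20.7 (V1), 45.5 (accessory subunits), 13.4 (cathepsins), 22.5 (glycosidases, sulfatases and lipid hydrolases), 21.8 (membrane proteins) and 2.71 (MiT/TFE), and the isoform ratios to 3.13 (ATP6V0A1 over ATP6V0A2), 2199.75 (ATP6V0D1 over ATP6V0D2), 2.20 (ATP6V0E2 over ATP6V0E1), 120.4 (ATP6V1B2 over ATP6V1B1), 18.1 (ATP6V1E1 over ATP6V1E2) and 114 (ATP6V1G1 over ATP6V1G2). CPM from the column totals gave medians of 10.3 (V0), 9.83 (V1), 23.3 (accessory), 9.46 (cathepsins), 13.9 (hydrolases) and 14.5 (membrane proteins), a shift that the construction of the scale sets. With exon bases in no other gene, chosen after seeing the data, the ratios were 1.08 for ATP6V0E2 over ATP6V0E1, 23.1 for ATP6V1B2 over ATP6V1B1 and 109.8 for ATP6V1G1 over ATP6V1G2. In sample 1 alone and sample 2 alone the ratio of ATP6V1B2 to ATP6V1B1 was 98.0 and 44.8.

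From 3 to 5 lysosomal genes passed the binomial test across the 5 alternative scalings and filters. ATP6V0B, ARSA and GAA passed in each, and PSAP was lost with column totals and with every counted gene tested. ATP6V0E2 (adjusted p = 0.0458) and ATP6V1F (adjusted p = 0.0343) passed only with column totals. TMM factors gave the same library ratio as the main scaling (0.475), so that alternative could not differ from it. The longer palindrome reduced the promoter count from 11 to 3, as its construction requires. A comparison of isoform proteins was not run, since no protein table was at hand. No paired analysis was possible because both samples belong to 1 group.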
